A study of Mus musculus with 9 samples.

Results

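Lipid-associated macrophages are tissue macrophages that gather where lipid is in excess, and they are defined by a shared set of transcripts. The 10 genes described here are Trem2, Tyrobp, Lpl, Fabp5, Cd68, Cd63, Cd9, Gpnmb, Lgals3 and Spp1, taken by symbol from the deposited count table of whole mouse liver. They are 10 of 24008 listed genes, and all 10 were among the 14379 genes with enough counts to be tested.

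TREM2 is a surface receptor that binds lipids, lipoproteins and cell debris, and it signals through the adaptor DAP12, encoded by Tyrobp. Macrophages that engage this receptor take up lipid, load their lysosomes and switch on genes for lipid hydrolysis, lipid carriage, lysosomal membranes and secreted proteins such as osteopontin and galectin-3. In fatty and fibrotic liver such cells are known to arise largely from recruited monocytes and to lie near lipid-laden hepatocytes and scar.

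RNA was sequenced from liver pieces of 9 mice, 3 per group and 1 library per mouse. Every mouse received a high fat and high carbohydrate diet, so no group fed a normal diet was analysed here. The control group carries the genotype label WT and was taken as the Flox mice of the study, F4MKO mice lack Irf4 in skeletal muscle, and F4MKO + FSTL1 mice carry the same deletion together with overexpression of FSTL1, a secreted glycoprotein. By the study's methods the overexpression came from an AAV8 vector with the muscle creatine kinase promoter injected into the gastrocnemius of F4MKO mice, while Flox and F4MKO mice received AAV-GFP, which the labels do not name. The study describes its mice as on a C57BL/6J background with a common starting age, and the deletion as driven by Myl-Cre. It names males in some places and both sexes in others, and its sequencing methods do not give the sex of these mice. The age at which these livers were taken was not stated plainly in the sources used here, and liver RNA cannot check a deletion or a transgene that was placed in muscle.

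Total counts ranged from 20656976 to 24322984 per library. Irf4 itself was counted 131, 132 and 101 times in the Flox livers, 120, 128 and 130 times in the F4MKO livers, and 10, 92 and 116 times in the F4MKO + FSTL1 livers. The first F4MKO + FSTL1 library thus stood apart in Irf4, and the number of lipid-associated macrophage genes that differed from F4MKO was 9 with and without it. The 9 hepatocyte markers, Alb among them, added up to 76308 CPM in the first F4MKO liver and to between 87324 and 110013 CPM in the other 8 livers. That F4MKO library also had the largest TMM factor, 1.17, and the highest level of its group in 9 of the 10 lipid-associated macrophage genes. Without it 0 of the 10 were called in F4MKO against Flox, and 9 in F4MKO + FSTL1 against F4MKO. Leaving out any Flox or any F4MKO + FSTL1 library instead also left 0 called in F4MKO against Flox. The median log2 fold change of the hepatocyte markers was between -0.08 and 0.06 in the 3 comparisons. Levels below are CPM, counts scaled to the library size with TMM normalisation, and a gene was called differentially expressed at an adjusted p below 0.05 in edgeR's quasi-likelihood test together with a fold change above 1.5. In bulk RNA, fewer macrophages and less RNA of a gene per macrophage cannot be told apart.

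The 10 genes include receptor, lysosomal and secreted genes. The stretch upstream of the start site is shown for 1 gene of each kind so that the letters behind 3 motif searches can be read. RefSeq held promoter windows for 7 of the 10 genes (Trem2, Cd68, Cd63, Cd9, Gpnmb, Lgals3 and Spp1, of which Spp1 has 2). Each line gives the 250 bases before the annotated start in GRCm38.p6, read 5′ to 3′ on the strand of the gene, with motif matches in capitals. Every line shown holds a match. The same stretch held none in Gpnmb, Cd9, Cd63, Lgals3 and the other Spp1 window. Trem2 lies at chr17:48346151-48346400 on the plus strand, Cd68 at chr11:69666171-69666420 on the minus strand, and Spp1 at chr5:104434861-104435110 on the plus strand.
Trem2: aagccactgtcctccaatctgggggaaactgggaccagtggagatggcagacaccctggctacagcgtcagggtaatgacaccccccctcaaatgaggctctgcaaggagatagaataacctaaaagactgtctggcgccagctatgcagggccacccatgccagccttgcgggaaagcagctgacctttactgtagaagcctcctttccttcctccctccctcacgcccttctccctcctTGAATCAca
Cd68: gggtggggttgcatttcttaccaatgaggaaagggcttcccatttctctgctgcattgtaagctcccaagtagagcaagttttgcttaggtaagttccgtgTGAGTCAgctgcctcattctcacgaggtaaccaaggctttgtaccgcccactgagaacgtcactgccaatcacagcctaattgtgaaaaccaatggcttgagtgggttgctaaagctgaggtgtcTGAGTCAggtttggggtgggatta
Spp1: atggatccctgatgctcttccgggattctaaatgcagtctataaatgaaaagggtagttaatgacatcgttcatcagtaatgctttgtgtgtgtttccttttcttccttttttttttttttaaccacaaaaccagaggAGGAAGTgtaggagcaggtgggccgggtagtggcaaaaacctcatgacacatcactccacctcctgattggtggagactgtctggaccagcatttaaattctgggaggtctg

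The motifs were TGANTCA, bound by AP-1 factors, AGGAAGT, bound by the macrophage factor PU.1, and CACGTG, the E-box read by lysosomal regulators of the MiT/TFE family. All were searched on both strands in windows of 250 bases before to 50 bases after the start, and in these genes no match to a motif overlapped a match to another. TGANTCA was present in 3 of the 7 genes, which were Trem2, Cd68 and Gpnmb, and in 7.81% of 32851 RefSeq windows. The Cd68 line holds it at positions -149 and -24 from the start, the Trem2 line at position -9, and the Gpnmb match lies past the start. AGGAAGT was found in Spp1 alone among the 7 genes and in 9.35% of all windows. In Spp1 it lay in the window printed above and not in the other window of that gene. CACGTG was found in none of the 7 genes and in 7.15% of all windows. These matches describe letters and were not tested as binding sites.

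Across all 9 livers, the 10 genes added up to between 344 and 413 CPM in Flox, between 622 and 943 CPM in F4MKO and between 187 and 250 CPM in F4MKO + FSTL1, with no overlap between groups. Spp1 and Lpl made up much of this sum. Their means were 248 and 186 CPM in F4MKO, where the sum averaged 741 CPM, and 59.9 and 118 CPM in Flox, where it averaged 372 CPM. For 9 of the 10 genes the group means ran from F4MKO + FSTL1 through Flox to F4MKO, an order that 30.3% of all tested genes had. In Lpl, Cd9, Gpnmb and Lgals3 the 3 groups did not overlap at all in that order, as in 3.49% of all tested genes. Fabp5 was the exception, with its highest mean in Flox. The first F4MKO mouse had the highest level of its group in 9 of the 10 genes, and the third F4MKO mouse had the lowest in 6.

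**Figure D1:**
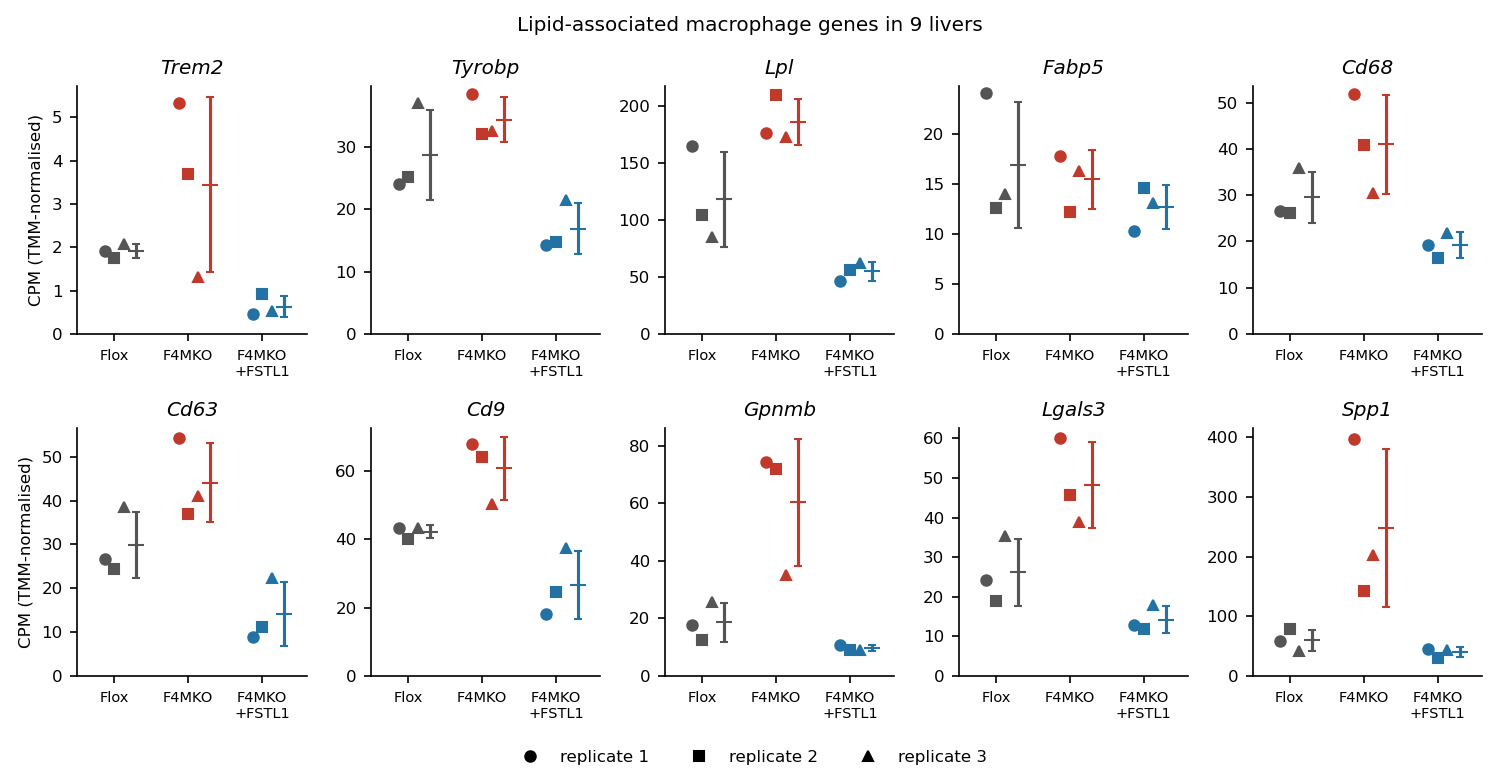
TMM-normalised CPM of each lipid-associated macrophage gene (vertical axes, from 0) in the 3 livers of each group, with points for single mice, marker shape for the replicate number and bars for mean ± SD. In 9 panels the F4MKO + FSTL1 livers sit below all F4MKO livers, whereas the Fabp5 panel shows overlapping groups.

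Levels were also set per kilobase of the longest principal GENCODE transcript, so that genes could be ranked against each other. In Flox liver Tyrobp was the highest of the 10 at 50.9 ± 12.8 CPM per kb (mean ± SD, n = 3) and Trem2 the lowest at 1.77 ± 0.149 CPM per kb. Neighbours in the order from Tyrobp through Spp1, Cd9, Lpl, Cd63, Cd68 and Lgals3 to Fabp5 overlapped between mice, while Gpnmb and Trem2 each lay below the gene above them without overlap. In F4MKO liver Spp1 took the first place at 164 ± 88.1 CPM per kb, above every Tyrobp value. In F4MKO + FSTL1 liver Tyrobp and Spp1 again led with overlapping values, and Trem2 was last at 0.583 ± 0.223 CPM per kb. Trem2 thus had the lowest level per kb in each group, and its counts are the thinnest of the set.

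Trem2, the lipid-sensing receptor (chr17:48346401-48354147, plus strand, GRCm38), was expressed at 1.92, 1.76 and 2.09 CPM in Flox, 5.34, 3.69 and 1.32 CPM in F4MKO, and 0.467, 0.913 and 0.522 CPM in F4MKO + FSTL1. The first 2 F4MKO mice stood above all Flox mice, the third lay below them, and all F4MKO + FSTL1 mice were below every other mouse. These levels rest on 10 to 151 counts per library. F4MKO differed from Flox by a log2 fold change of 0.85 ± 0.41 (SE), which did not pass (edgeR adjusted p = 0.318), whereas F4MKO + FSTL1 was 5.41-fold lower than F4MKO (edgeR adjusted p = 0.00517). Against Flox the F4MKO + FSTL1 mean was 3.01-fold lower without overlap, at an edgeR adjusted p of 0.195.

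Tyrobp, which encodes the ITAM-bearing adaptor of TREM2 and of other myeloid receptors (chr7:30413760-30417585, plus strand), measured 24.0, 25.1 and 37.0 CPM in Flox, 38.4, 32.0 and 32.5 CPM in F4MKO, and 14.3, 14.7 and 21.5 CPM in F4MKO + FSTL1. Flox and F4MKO overlapped through the third Flox mouse, and F4MKO + FSTL1 lay below both groups. The change was 0.26 ± 0.19 on the log2 scale in F4MKO against Flox (edgeR adjusted p = 0.517) and -1.03 ± 0.19 in F4MKO + FSTL1 against F4MKO (edgeR adjusted p = 0.00463). Receptor and adaptor both fell with FSTL1, the receptor by the larger fitted fold. A difference between their folds was not tested.

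Lpl encodes lipoprotein lipase, which releases fatty acids from circulating triglyceride (chr8:68880491-68907448, plus strand). It was expressed at 165, 104 and 84.9 CPM in Flox, 176, 209 and 173 CPM in F4MKO, and 46.2, 56.0 and 62.6 CPM in F4MKO + FSTL1. The 3 groups did not overlap, although the first Flox mouse came close to the F4MKO mice. The excess of F4MKO over Flox, 0.66 ± 0.21 on the log2 scale, did not pass (edgeR adjusted p = 0.159), and F4MKO + FSTL1 was 3.39-fold lower than F4MKO (edgeR adjusted p = 0.00116). Its difference between F4MKO + FSTL1 and Flox, -1.10 ± 0.21 on the log2 scale, had the smallest adjusted p of the 10 genes in that comparison (edgeR adjusted p = 0.0777) and did not pass.

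Fabp5, a cytosolic fatty acid carrier (chr3:10012548-10016607, plus strand), was the 1 gene of the 10 that passed in no comparison. It measured 24.2, 12.6 and 14.1 CPM in Flox, 17.9, 12.2 and 16.4 CPM in F4MKO, and 10.3, 14.7 and 13.1 CPM in F4MKO + FSTL1. All groups overlapped. The log2 fold changes were -0.13 ± 0.24 in F4MKO against Flox and -0.29 ± 0.24 in F4MKO + FSTL1 against F4MKO (edgeR adjusted p = 0.823 and 0.420), and the first changed sign when the first Flox or the second F4MKO mouse was left out. Fabp5 has a processed pseudogene, and how reads shared between copies were counted is not given in the sources used here, so its level is less certain.

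Cd68 and Cd63 encode lysosomal and late endosomal membrane proteins, the first a macrophage marker and the second a tetraspanin of many cell types. Cd68 (chr11:69664213-69666153, minus strand) measured 26.6, 26.2 and 35.8 CPM in Flox, 51.8, 40.7 and 30.4 CPM in F4MKO, and 19.3, 16.3 and 21.9 CPM in F4MKO + FSTL1. Cd63 (chr10:128900989-128912822, plus strand) measured 26.6, 24.4 and 38.5 CPM in Flox, 54.2, 36.9 and 41.2 CPM in F4MKO, and 8.88, 11.1 and 22.5 CPM in F4MKO + FSTL1. In both genes the third Flox mouse overlapped the F4MKO mice, and every F4MKO + FSTL1 mouse was below every Flox mouse. F4MKO + FSTL1 was 2.14-fold lower than F4MKO in Cd68 (edgeR adjusted p = 0.00368) and 3.13-fold lower in Cd63 (edgeR adjusted p = 0.0043). Neither passed in F4MKO against Flox, with log2 fold changes of 0.47 ± 0.19 and 0.56 ± 0.29 and edgeR adjusted p of 0.241 and 0.349.

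Cd9, a cell surface tetraspanin found on macrophages and also on bile duct epithelium (chr6:125460266-125494791, minus strand), was expressed at 43.2, 39.9 and 43.2 CPM in Flox, 67.7, 63.9 and 50.3 CPM in F4MKO, and 18.1, 24.4 and 37.4 CPM in F4MKO + FSTL1. Groups did not overlap, and the third F4MKO + FSTL1 mouse was nearest to Flox. F4MKO exceeded Flox by 0.53 ± 0.21 on the log2 scale without passing (edgeR adjusted p = 0.235), and F4MKO + FSTL1 was 2.28-fold lower than F4MKO (edgeR adjusted p = 0.00378). Unstranded counting could add reads of an overlapping non-coding gene on the opposite strand, since the use of strand is not given in the sources used here.

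Gpnmb, a lysosomal and surface glycoprotein induced in lipid-loaded macrophages (chr6:49036546-49070929, plus strand), was 1 of the 2 genes that passed in both comparisons listed by the study. It measured 17.8, 12.4 and 25.6 CPM in Flox, 74.3, 71.9 and 35.0 CPM in F4MKO, and 10.8, 8.99 and 8.98 CPM in F4MKO + FSTL1. The groups did not overlap, the third F4MKO mouse was the lowest of its group, and the F4MKO + FSTL1 mice were close together. Gpnmb was 3.25-fold higher in F4MKO than in Flox (edgeR adjusted p = 0.0404) and 6.29-fold lower in F4MKO + FSTL1 than in F4MKO (edgeR adjusted p = 0.000963). In F4MKO + FSTL1 against Flox its log2 fold change was -0.95 ± 0.30 (edgeR adjusted p = 0.203).

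Lgals3 encodes galectin-3, a secreted lectin of activated macrophages (chr14:47367751-47386160, plus strand). It was expressed at 24.3, 18.8 and 35.3 CPM in Flox, 60.1, 45.7 and 39.0 CPM in F4MKO, and 12.9, 11.8 and 18.0 CPM in F4MKO + FSTL1. The groups did not overlap, but the third Flox mouse lay close to the third F4MKO mouse. The excess in F4MKO over Flox, 0.89 ± 0.23 on the log2 scale, did not pass (edgeR adjusted p = 0.106), and F4MKO + FSTL1 was 3.39-fold lower than F4MKO (edgeR adjusted p = 0.00152).

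Spp1 encodes osteopontin, a secreted matrix and cytokine-like protein made by macrophages and by bile duct epithelium (chr5:104435118-104441050, plus strand). It measured 59.4, 78.2 and 42.2 CPM in Flox, 397, 143 and 203 CPM in F4MKO, and 45.6, 29.8 and 43.7 CPM in F4MKO + FSTL1. All F4MKO mice stood above all others, the first F4MKO mouse far above its group, whereas F4MKO + FSTL1 and Flox overlapped. Spp1 was 4.14-fold higher in F4MKO than in Flox (edgeR adjusted p = 0.0404) and 6.24-fold lower in F4MKO + FSTL1 than in F4MKO (edgeR adjusted p = 0.0014). A non-coding annotation on the same strand shares part of its exons.

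Markers of bile duct epithelium moved alongside Spp1. The 9 listed cholangiocyte markers added up to between 27.9 and 33.1 CPM in Flox, between 38.4 and 62.7 CPM in F4MKO and between 21.8 and 26.6 CPM in F4MKO + FSTL1. Of the 6 that could be tested, Epcam, an epithelial adhesion molecule, rose in F4MKO against Flox by 2.01 on the log2 scale (edgeR adjusted p = 0.0359). It was the 1 gene of the 6 that edgeR called there, beside 0.202% of all tested genes called higher. DESeq2 called 3 of the 6 higher, beside 252 of all 14379 tested genes. An unadjusted p below 0.05 was found in 4 of the 6, beside 2424 of all tested genes. Of the same 6, 4 fell in F4MKO + FSTL1 against F4MKO, beside 11.2% of all tested genes called lower. The log2 fold changes were -3.16 in the tight junction gene Cldn4, -2.58 in Epcam, -1.93 in Krt7 and -1.87 in Krt19, the last 2 being keratin genes. The others had too few counts to be tested, with Ehf at 0 to 2 counts per library. The part of bile duct cells in the Spp1 and Cd9 levels was not tested.

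The question of the F4MKO against Flox comparison is what loss of Irf4 in muscle does to the liver under this diet. Of the 10 genes, 2, Gpnmb and Spp1, were differentially expressed and both were higher in F4MKO, against 0.202% of all 14379 tested genes called higher. Higher means in F4MKO were found in 9 of the 10, as in 49.4% of all tested genes, with a median log2 fold change of 0.61 beside -0.00 over all tested genes. An unadjusted p below 0.05 with a higher mean was found in 6, beside 9.35% of all tested genes. A set of 5 genes (Lpl, Cd9, Gpnmb, Lgals3 and Spp1) were higher in every F4MKO mouse than in any Flox mouse, beside 11.7% of all tested genes. The calls of Gpnmb and Spp1 lie just inside the threshold. With edgeR restricted to the 6 libraries compared their adjusted p were 0.0646 and 0.0631, and without the first F4MKO mouse they were 0.149 and 0.114, at log2 fold changes of 1.53 for both. Leaving out any Flox or any F4MKO + FSTL1 library, or the first F4MKO library, left 0 of the 10 genes called, leaving out the second F4MKO library left 1 (Spp1), and leaving out the third left both.

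The comparison of F4MKO + FSTL1 with F4MKO asks what raising FSTL1 in muscle does in mice that lack Irf4 there. In it, 9 of the 10 genes fell and none rose, against 11.2% of all tested genes called lower, and the exception was Fabp5. The same 9 genes were lower in every F4MKO + FSTL1 mouse than in any F4MKO mouse, beside 21.1% of all tested genes. The log2 fold changes were -2.65 in Gpnmb, -2.64 in Spp1, -2.44 in Trem2, -1.76 in Lgals3 and Lpl, -1.65 in Cd63, -1.19 in Cd9, -1.10 in Cd68 and -1.03 in Tyrobp. The median over the 10 genes was -1.70 beside 0.01 over all tested genes.

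**Figure D2:**
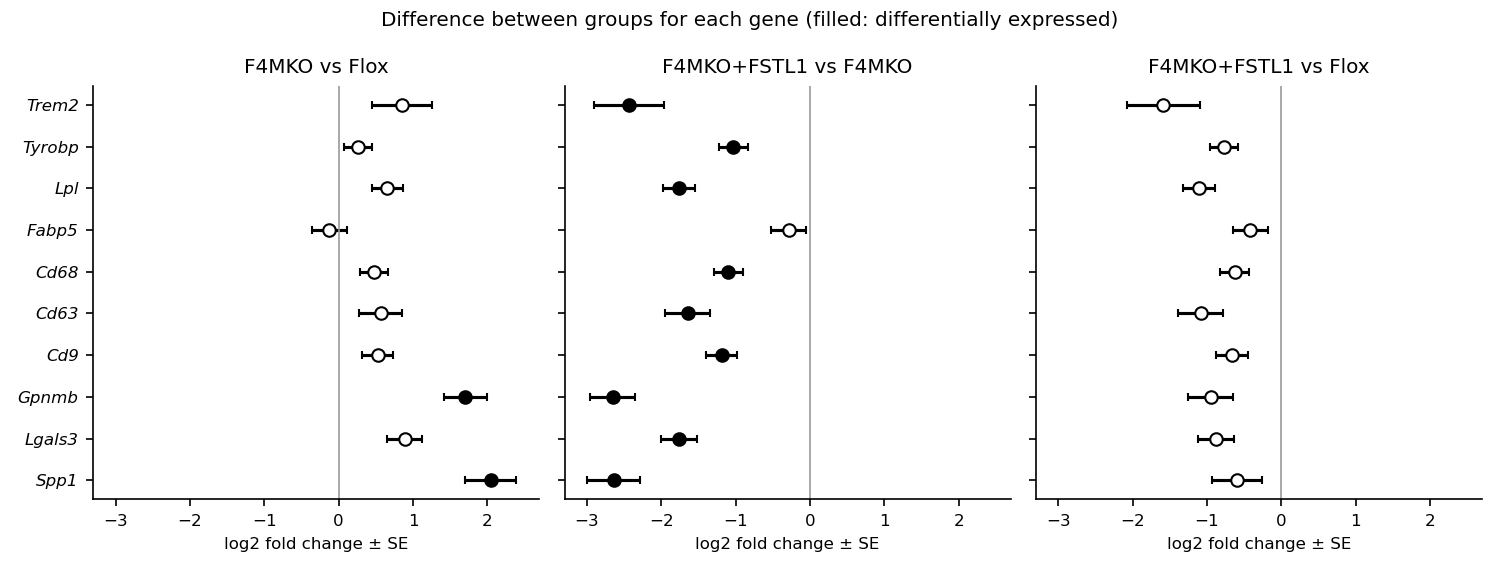
Log2 fold change ± SE of each gene (rows) in the 3 comparisons (panels), positive where the first named group is higher, with filled points for differentially expressed genes. Gpnmb and Spp1 are filled in F4MKO against Flox, 9 genes are filled below zero in F4MKO + FSTL1 against F4MKO, and no point is filled in F4MKO + FSTL1 against Flox.

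F4MKO + FSTL1 was then set against Flox, a comparison that the study did not list. The means of all 10 genes were lower in F4MKO + FSTL1, and none was differentially expressed in edgeR, where 0.00695% of all tested genes were called lower. Of the 10, 8 had an unadjusted p below 0.05, beside 9.12% of all tested genes with such a p and a lower mean, and 6 were called lower by DESeq2, beside 1.63% of all tested genes. All genes but Fabp5 and Spp1, 8 in number, were lower in every F4MKO + FSTL1 mouse than in any Flox mouse, beside 10.7% of all tested genes. The median log2 fold change was -0.82, from -0.42 in Fabp5 to -1.59 in Trem2. The comparisons share libraries, so the values of 1 group enter 2 of them.

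Genes that act with TREM2 were taken from a list of receptors, kinases and proteases of its pathway. In F4MKO + FSTL1 against F4MKO, 10 of the 18 tested genes fell, beside 11.2% of all tested genes called lower. None rose, and the median was -0.88. The log2 fold change was -1.58 in Clec5a, another receptor that signals through DAP12, -1.23 in Vav1, an exchange factor, and -1.08 in Plcg2, a phospholipase activated by SYK, with Clec5a at 24 counts or fewer in every library. In F4MKO against Flox the edgeR test and DESeq2 called 0 of the 18, 6 had an unadjusted p below 0.05, and the median was 0.39. In F4MKO + FSTL1 against Flox edgeR called 0 and DESeq2 1, again 6 had an unadjusted p below 0.05, and the median was -0.35. Over all 14379 tested genes, 2424 had an unadjusted p below 0.05 in F4MKO against Flox. There were 5080 in F4MKO + FSTL1 against F4MKO and 1924 in F4MKO + FSTL1 against Flox. Of the same 14379 genes DESeq2 called 252 higher and 84 lower in F4MKO against Flox. It called 507 higher and 1563 lower in F4MKO + FSTL1 against F4MKO, and 50 higher and 234 lower in F4MKO + FSTL1 against Flox. These numbers are the background for the same counts in every list below.

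Other genes of the lipid-associated macrophage programme were read from a second list. Of 24 tested, 12 fell in F4MKO + FSTL1 against F4MKO, beside 11.2% of all tested genes called lower. None rose, and the median was -0.57. The log2 fold change was -2.27 in Mmp12, a macrophage elastase, -2.19 in Atp6v0d2, a subunit of the proton pump of lysosomes, and -2.12 in Itgax, the integrin CD11c. In F4MKO against Flox the list had a median of 0.29, and edgeR called 0 of 24, DESeq2 called 5 higher and 10 had an unadjusted p below 0.05. Between F4MKO + FSTL1 and Flox the median was -0.24, and edgeR called 0, DESeq2 3 lower, with 10 at an unadjusted p below 0.05.

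Receptors of osteopontin are carried by macrophages, stellate cells and other cells. Cd44, a hyaluronan and osteopontin receptor, had a log2 fold change of -0.94 in F4MKO + FSTL1 against F4MKO and Itga9, an integrin subunit, of -0.75. They were the 2 of 8 that passed, beside 11.2% of all tested genes called lower. All 8 had lower means there, with a median of -0.51. In F4MKO against Flox edgeR and DESeq2 called 0 of 8, 2 had an unadjusted p below 0.05 and the median was 0.18. For F4MKO + FSTL1 against Flox both tools called 0, 4 had an unadjusted p below 0.05 and the median was -0.31.

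Partners of lipoprotein lipase, which anchor, activate or inhibit the enzyme and are made largely by hepatocytes and endothelium, were not called lower alongside Lpl. For F4MKO + FSTL1 against F4MKO edgeR called 0 of the 7 tested, DESeq2 called 1 higher, 4 had an unadjusted p below 0.05, and all 7 had higher means with a median of 0.43. Between F4MKO and Flox edgeR and DESeq2 called 0, 1 had an unadjusted p below 0.05 and the median was -0.22, and in F4MKO + FSTL1 against Flox both called 0, 2 had an unadjusted p below 0.05 and the median was 0.15. Angptl4 had 0 to 4 counts per library and was not tested.

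Relatives of the 10 genes in the tetraspanin, fatty acid binding protein, galectin, lipase and lysosomal membrane families were mixed. Of 17 tested, 1 fell in F4MKO + FSTL1 against F4MKO, beside 11.2% of all tested genes called lower. It was Cd53, a leukocyte tetraspanin, at -1.07 on the log2 scale. Fabp1 and Fabp2, the liver and intestinal fatty acid carriers, rose by 0.66 and 0.78, beside 3.21% of all tested genes called higher. Fabp1 measured 3277 ± 460 CPM in F4MKO and 5175 ± 445 CPM in F4MKO + FSTL1 (mean ± SD, n = 3). The list median was 0.10 in that comparison. For F4MKO against Flox edgeR and DESeq2 called 0 of 17, 5 had an unadjusted p below 0.05 and the median was -0.02, and in F4MKO + FSTL1 against Flox both called 0, 3 had an unadjusted p below 0.05 and the median was 0.02.

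**Figure D3:**
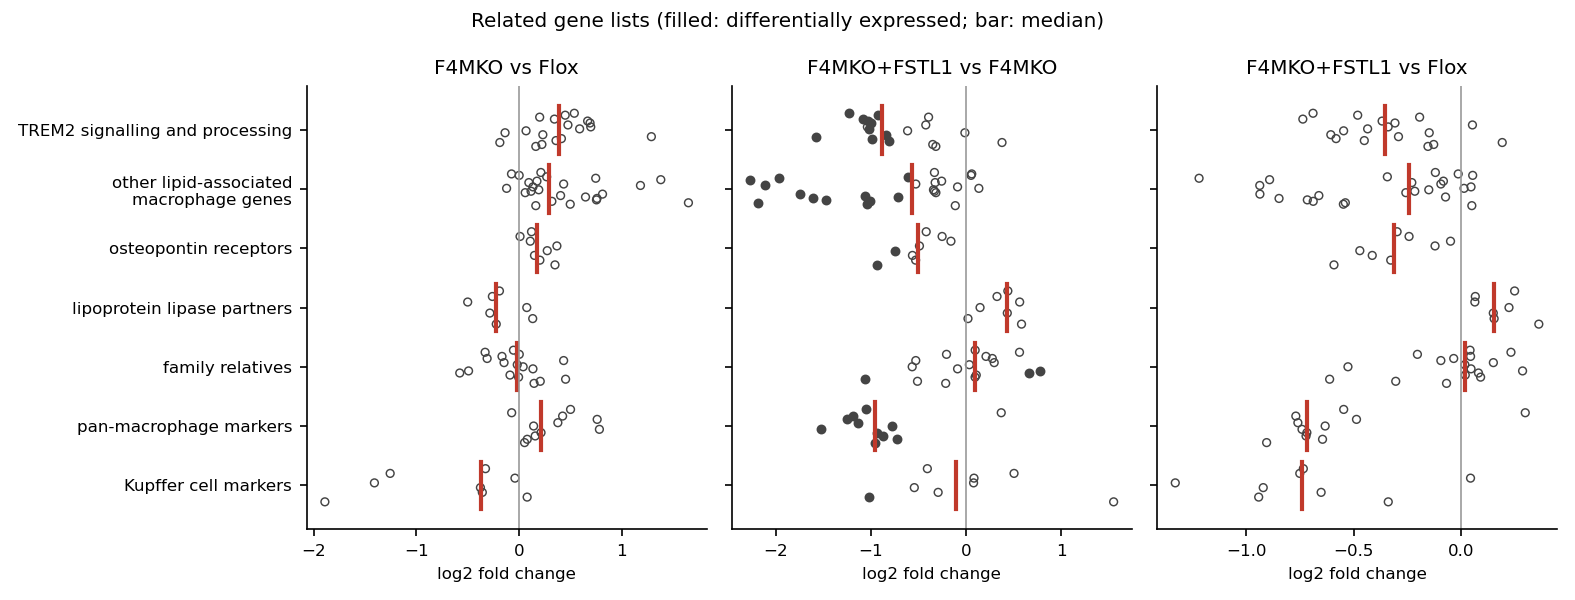
Log2 fold change of every tested gene (points) of 5 related lists and 2 macrophage marker lists (rows) in the 3 comparisons (panels), with filled points for differentially expressed genes and a bar at the list median. For F4MKO + FSTL1 against F4MKO the medians are -0.88 for TREM2 signalling, -0.57 for other lipid-associated macrophage genes, -0.96 for pan-macrophage markers and 0.43 for partners of lipoprotein lipase.

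Markers of macrophages in general moved with the 10 genes in the F4MKO + FSTL1 livers. The 11 pan-macrophage markers, among them Adgre1 and Csf1r, added up to between 754 and 1065 CPM in Flox, between 982 and 1101 CPM in F4MKO and between 468 and 687 CPM in F4MKO + FSTL1. Between F4MKO + FSTL1 and F4MKO 10 of the 11 fell, beside 11.2% of all tested genes called lower. None rose, and the median was -0.96. The log2 fold change was -1.52 in Cd14, a receptor for bacterial lipopolysaccharide, -1.25 in Itgam, the integrin CD11b, and -1.19 in the lysozyme gene Lyz2. Between F4MKO and Flox edgeR and DESeq2 called 0, 3 had an unadjusted p below 0.05 and the median was 0.21. Between F4MKO + FSTL1 and Flox edgeR called 0 and DESeq2 6 lower, 9 had an unadjusted p below 0.05 and the median was -0.72.

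Kupffer cell markers, which label the resident macrophages of liver sinusoids, were read apart from the general markers. Lower means in F4MKO than in Flox were found in 7 of 8, with a median of -0.37, while edgeR called 0, DESeq2 called 1 lower and 3 had an unadjusted p below 0.05. The scavenger receptor gene Marco measured 22.2 ± 14.1 CPM in Flox and 8.34 ± 1.23 CPM in F4MKO (mean ± SD, n = 3), at an edgeR adjusted p of 0.139. For F4MKO + FSTL1 against F4MKO 1 of 8 fell, Cd5l by 1.02 on the log2 scale, beside 11.2% of all tested genes called lower. Means were higher in 4 and lower in 4, with a median of -0.11. The largest change was in Cd163, higher by 1.55 without overlap and not called (edgeR adjusted p = 0.0851). For F4MKO + FSTL1 against Flox the median was -0.74, edgeR called 0, DESeq2 1 lower, and 5 had an unadjusted p below 0.05.

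Markers of some other cell types, but not of all, also had higher means in F4MKO than in Flox. Of 10 endothelial markers 9 had lower means in F4MKO (median log2 fold change -0.26), as did 6 of 9 hepatocyte markers (median -0.08). Lymphocyte markers were split, with 4 higher and 3 lower. By edgeR and by DESeq2 0 genes of these 3 lists were called. Means were higher in all 4 neutrophil and in 5 of 6 dendritic cell markers. The 12 stellate cell markers added up to between 446 and 523 CPM in Flox and between 604 and 800 CPM in F4MKO. All 12 had higher means in F4MKO, with a median log2 fold change of 0.45. Of these, 7 did not overlap, beside 11.7% of all tested genes higher without overlap. For this list edgeR called 0 and DESeq2 5 higher, with 6 at an unadjusted p below 0.05. DESeq2 called 252 of all 14379 tested genes higher there. All 6 monocyte markers had higher means as well, with a median of 0.72, and edgeR called 0, DESeq2 2, with 2 at an unadjusted p below 0.05. The part of these cell types in the higher levels of Gpnmb, Spp1 and the other genes in F4MKO was not tested.

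Markers of other cell types moved between F4MKO + FSTL1 and F4MKO, too. Among monocyte markers 5 of 6 fell (median -1.32), as did 8 of 12 stellate cell markers (median -0.84), 2 of 6 dendritic cell markers, 1 of 4 neutrophil markers and all 8 cycling cell markers (median -2.70). Of all tested genes 11.2% were called lower there. Col1a1, the fibrillar collagen gene of stellate cells, had a log2 fold change of -2.25 and the chemokine receptor gene Cx3cr1 of -1.36. By edgeR and by DESeq2 0 of 7 lymphocyte, 0 of 10 endothelial and 0 of 9 hepatocyte markers were called. In each of these lists 2 had an unadjusted p below 0.05, beside 5080 of all 14379 tested genes. Of the adipocyte list, Adipoq, Plin1, Lep, Retn and Adig were at 0 to 4 counts per library, while Cfd, which encodes adipsin, rose by 7.02 on the log2 scale, from 0.279 ± 0.170 CPM in F4MKO to 37.5 ± 30.7 CPM in F4MKO + FSTL1 (mean ± SD, n = 3). Cidec, a lipid droplet gene that steatotic hepatocytes also express, was the other adipocyte marker tested, at 99.1 ± 4.79 CPM in F4MKO and 81.7 ± 44.3 CPM in F4MKO + FSTL1 (log2 fold change -0.28, edgeR adjusted p = 0.666). The part of these cell types in the fall of the 10 genes was not tested.

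**Figure D4:**
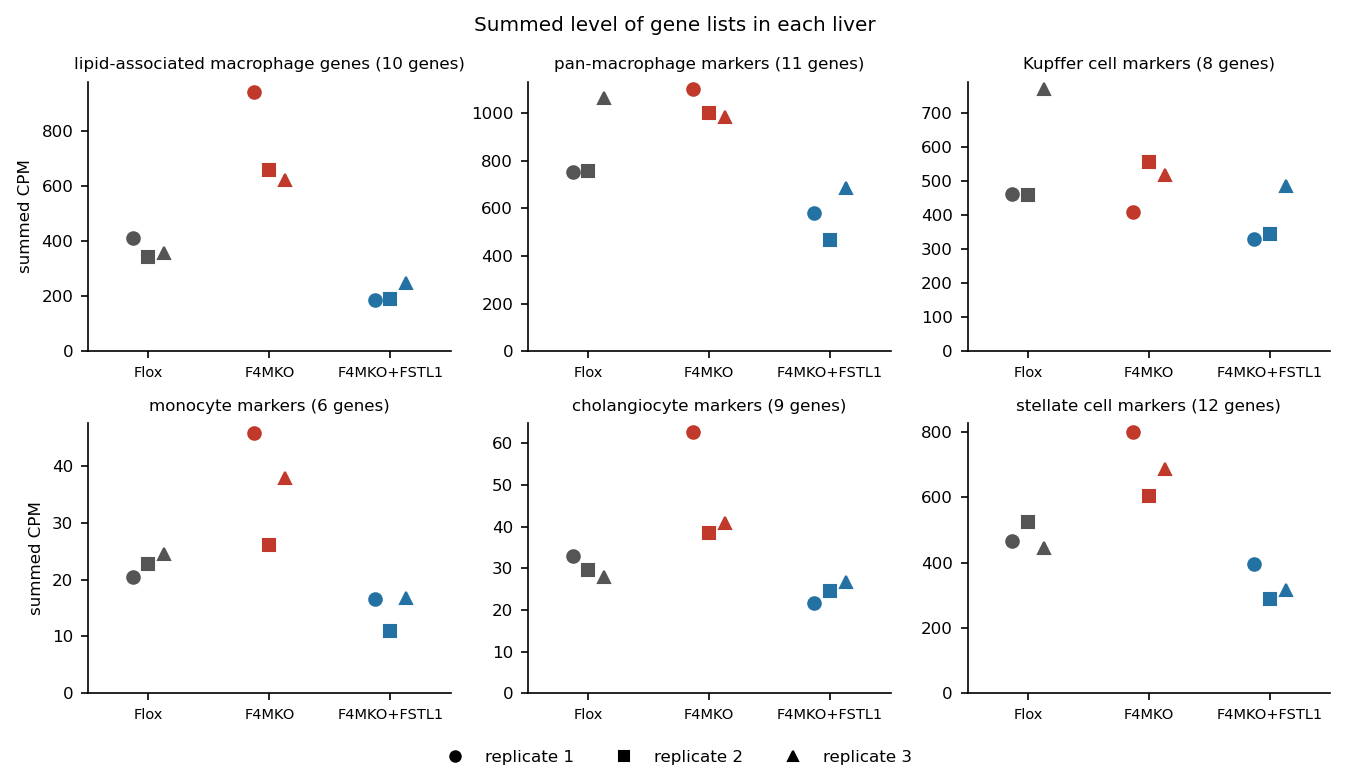
Summed CPM (vertical axes, from 0) of the 10 lipid-associated macrophage genes and of 5 marker lists in each liver, with 1 point per mouse and marker shape for the replicate number. The sum over the 10 genes, much of it Spp1 and Lpl, separates all 3 groups. It runs from 187 to 250 CPM in F4MKO + FSTL1 up to 622 to 943 CPM in F4MKO, whereas Kupffer cell markers overlap between groups.

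To set each gene against macrophage RNA as a whole, the mean log2 CPM of the 11 pan-macrophage markers was subtracted from its log2 CPM in each liver. The exact permutation test with 3 against 3 mice cannot give a two-sided p below 0.1, so no gene could pass in this measure, and 10 genes were tested in each comparison. The marker mean itself was 5.40 in Flox, 5.73 in F4MKO and 4.79 in F4MKO + FSTL1 on the log2 scale. For F4MKO against Flox, Spp1, Gpnmb and Lgals3 were higher without overlap, by 1.63, 1.35 and 0.58 (exact permutation p = 0.1 each), beside 2.3% of all tested genes. The other 7 overlapped, with Tyrobp at -0.05 and Cd68 at 0.12.

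For F4MKO + FSTL1 against F4MKO, 5 genes were lower relative to the pan-macrophage markers without overlap (exact permutation p = 0.1 each), beside 2.61% of all tested genes. Gpnmb differed by -1.64, Spp1 by -1.60, Lpl by -0.83, Lgals3 by -0.82 and Cd63 by -0.80. Trem2 differed by -1.20 with overlap (exact permutation p = 0.2), with the third F4MKO mouse near the F4MKO + FSTL1 mice. Tyrobp, Cd68 and Cd9 overlapped at -0.11, -0.14 and -0.30. Fabp5 was higher by 0.65 without overlap, as were 74.9% of all tested genes, and a gene with equal log2 CPM in both groups would read 0.93. Between F4MKO + FSTL1 and Flox all 10 genes overlapped in this measure, with a median of -0.20.

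Taking the Kupffer cell markers as the reference moved every gene by the same amount, 1.03 in F4MKO against Flox and -0.97 in F4MKO + FSTL1 against F4MKO. In F4MKO against Flox a gene with equal log2 CPM in both groups would read 0.70, so the values there, such as 2.66 in Spp1, 2.38 in Gpnmb and 0.98 in Tyrobp, carry the lower Kupffer marker level of F4MKO. Between F4MKO + FSTL1 and F4MKO an unchanged gene would read -0.03, and Gpnmb stood at -2.60 and Fabp5 at -0.31.

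**Figure D5:**
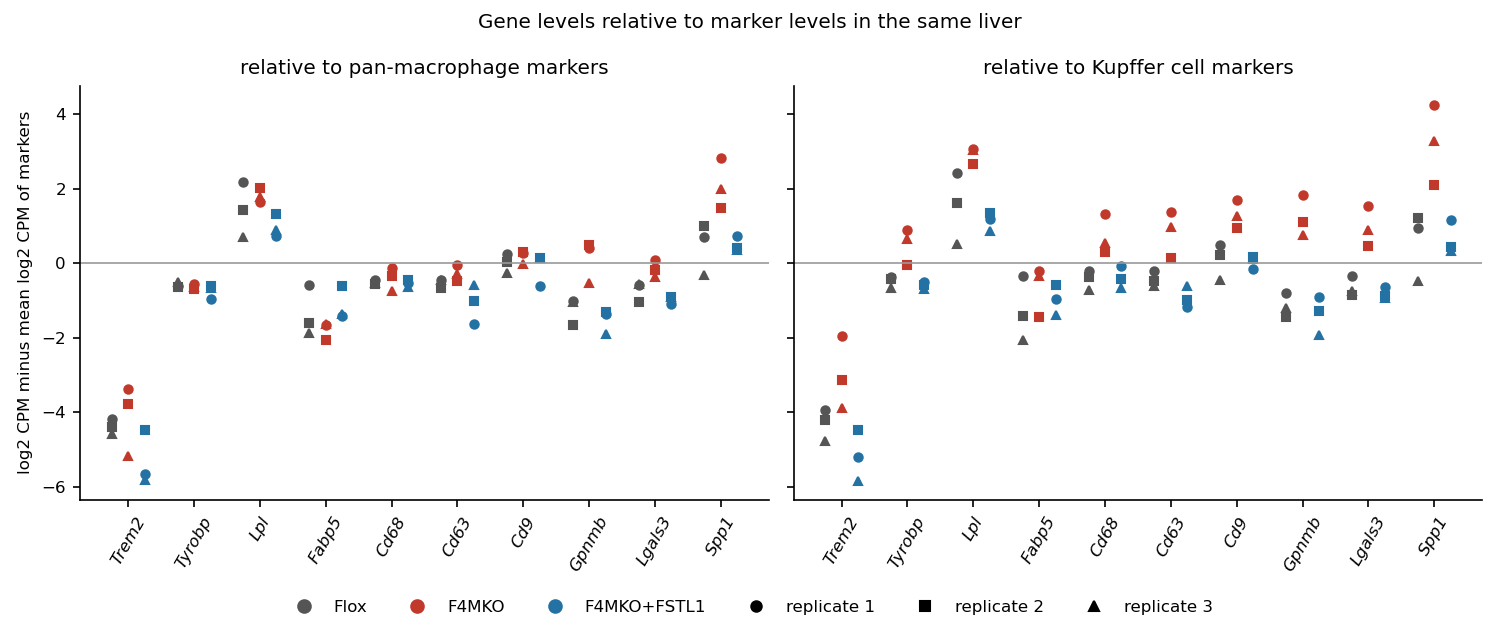
Log2 CPM of each gene (horizontal axis) minus the mean log2 CPM of pan-macrophage markers (left) or Kupffer cell markers (right) in the same liver, with 1 point per mouse, colour for the group and marker shape for the replicate number. Spp1, Gpnmb and Lgals3 are highest in F4MKO in both panels, and between the panels all genes of a liver move by the same amount, which is upward and larger in each F4MKO liver than in any other liver.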

How the data were processed

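The authors deposited whole-number counts per gene and library, neither normalised nor filtered. The 9 libraries are liver RNA of separate mice, 3 per group. By the study's methods and the submitters' processing notes, paired-end reads were trimmed with Trim Galore 0.6.7, mapped to mm10 with HISAT2 2.2.1 and counted with featureCounts 2.0.1. The gene annotation, the use of strand and the handling of reads that map to several genes are not given in the sources used here.

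Differences were tested with edgeR 4.0.16 under R 4.3.3. Genes passed filterByExpr with a minimum count of 10 and a minimum total of 15, which kept 14379 genes, and libraries were scaled by TMM. The quasi-likelihood model held all 9 libraries together, with 1 coefficient for each group and without a block. P-values were adjusted by Benjamini-Hochberg over all tested genes. Log2 CPM used a prior count of 2. Differences relative to marker lists were compared by two-sided exact permutation tests over mice, in which every split of the libraries was enumerated. The p-values of these tests were adjusted over the 10 genes with scipy 1.17.1. The fit was tested on simulated counts beforehand.

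The 10 genes and all lists were chosen with earlier results of these data known, so no list was tested as a set. The text names the 10 genes, in each list up to 3 differentially expressed genes with the largest change whose groups do not overlap, defining markers near 0, and the 5 genes nearest in pattern to Trem2 and to Gpnmb. Krt19, Marco, Angptl4 and some background examples lie outside that rule and were chosen after their values were seen. Aif1, a listed macrophage marker, was not analysed here. Gene positions and transcript lengths came from GENCODE vM21 (GRCm38), and promoter windows from RefSeq (GRCm38.p6). Alternatives were DESeq2 1.42.0, its size factors in edgeR, no filter, the 6 libraries compared, the replicate number as a block, no fold threshold, each library left out, and Kupffer cell markers in place of pan-macrophage markers. Same-group libraries differed by more than counting noise in every pair.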

Additional observations from a re-analysis of the deposited data

How the results depend on the processing

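The fall of 9 of the 10 genes in F4MKO + FSTL1 against F4MKO held in all 15 alternatives run, with 9 genes called in each, and the count of all differentially expressed genes there was 2070, from 1295 to 2216 when a library was left out. In F4MKO against Flox, 39 genes in all and 2 of the 10 were called. All genes numbered 338 with DESeq2, 478 without the filter, 11 with the 6 libraries compared and 0 to 100 with a library left out, and of the 10 genes 3 were called with DESeq2, 4 without the filter, 0 with the 6 libraries compared and 0 to 2 with a library left out. In F4MKO + FSTL1 against Flox, 1 gene and 0 of the 10 were called. All genes numbered 284 with DESeq2, 2 with DESeq2's size factors in edgeR, 379 without the filter, 0 with the 6 libraries compared and 0 to 101 with a library left out, and of the 10 genes 6 were called with DESeq2, 8 without the filter and 0 to 3 with a library left out. The cause of these differences was not tested.

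After group means were removed, libraries with the same number correlated between -0.099 and 0.304, not above 0.1 in every pair, and the numbers mark different mice, so they were not taken as pairs. With the replicate block 134 genes were called in F4MKO against Flox, 2170 in F4MKO + FSTL1 against F4MKO and 15 in F4MKO + FSTL1 against Flox, and 2, 9 and 0 of the 10 genes.

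Signs changed as follows. The Fabp5 log2 fold change in F4MKO against Flox ranged from -0.30 to 0.21 with a library left out, positive without the first Flox (0.21) or the second F4MKO library (0.01). Taking Kupffer cell instead of pan-macrophage markers as the reference adds 1.03, -0.97 and 0.06 to every gene in the 3 comparisons, which by itself turned these signs: Tyrobp and Fabp5 became 0.98 and 0.61 in F4MKO against Flox, Fabp5 became -0.31 in F4MKO + FSTL1 against F4MKO with 0 genes higher in place of 1, and Cd68 became 0.0489 in F4MKO + FSTL1 against Flox. Relative to pan-macrophage markers with a library left out, Trem2 ranged from -0.0843 to 0.82 and Cd68 from -0.0159 to 0.29 in F4MKO against Flox, and Cd68 from -0.30 to 0.00306 in F4MKO + FSTL1 against F4MKO, with the sign turned in each without the first F4MKO library. In F4MKO + FSTL1 against Flox, Cd9 ranged from -0.26 to 0.13, Spp1 from -0.36 to 0.30, Fabp5 from -0.0283 to 0.62 and Cd68 from -0.0555 to 0.0355. The number of genes higher relative to pan-macrophage markers ranged from 6 to 8, 1 to 2 and 0 to 4 in the 3 comparisons. With 3 mice per group, and Trem2 at 10 to 19 counts in F4MKO + FSTL1, small differences could not be detected.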

Other observations

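The genes whose pattern over the 9 livers came nearest to that of Trem2 were found among 14369 other tested genes by the root mean square difference of log2 CPM, each gene centred on its own mean. The first 5 were Eda2r at 0.30, Xlr3b at 0.36, Rasal3 at 0.42, Troap at 0.42 and Fhl2 at 0.43. Eda2r, a receptor of the tumour necrosis factor family, averaged 3.24 CPM in Flox, 4.45 CPM in F4MKO and 1.11 CPM in F4MKO + FSTL1. Xlr3b belongs to a family of near-identical copies, so its counts are uncertain. Among the lipid-associated macrophage genes themselves Lgals3 was nearest to Trem2 at 0.57 and Fabp5 farthest at 0.95.

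For Gpnmb the nearest were Fam212b and AI314278 at 0.26 each, Mmp12 at 0.31, Gm9949 at 0.34 and Gipc2 at 0.35. Mmp12, the macrophage elastase, averaged 18.8 CPM in Flox, 48.8 CPM in F4MKO and 10.1 CPM in F4MKO + FSTL1, while Fam212b and Gm9949 averaged below 1 CPM in every group. Lgals3 was again the nearest of the 10 genes at 0.46 and Fabp5 the farthest at 1.10. These distances describe 9 libraries and carry no test.

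Among cycling cell markers Ccnb1, which encodes cyclin B1, was the 1 gene of all 14379 that edgeR called in F4MKO + FSTL1 against Flox (adjusted p = 0.0469). It measured 1.77 ± 0.602 CPM in Flox, 3.48 ± 0.262 CPM in F4MKO and 0.196 ± 0.0512 CPM in F4MKO + FSTL1 (mean ± SD, n = 3), and all 8 cycling cell markers had an unadjusted p below 0.05 in that comparison. In F4MKO against Flox the 8 had higher means with a median log2 fold change of 0.89, edgeR called 0, DESeq2 1, and 5 had an unadjusted p below 0.05. The liver level of Fstl1 was 6.15, 7.62 and 6.52 CPM in Flox, 16.1, 9.80 and 11.3 CPM in F4MKO and 5.33, 3.22 and 4.33 CPM in F4MKO + FSTL1.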
